A study of Homo sapiens with 6 samples.

Results

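The 33 genes described here are transcriptional targets of p53, among them EDA2R. They were chosen by symbol from a list of well known p53 targets, with earlier results of these data known. All 33 were found among the 35793 genes of the deposited table. RNA was measured in cardiomyocytes made from human induced pluripotent stem cells, taken on day 15 of differentiation and kept in RPMI 1640 with B27, with no treatment. The wild type was WTC11, an established line, and the knockout was a WTC11 derivative with both copies of STK25, a serine/threonine kinase gene, disrupted by CRISPR/Cas9. Each genotype had 3 biological replicates, so 6 libraries were compared. The knockout was 1 line, so an effect of the STK25 edit and any other difference between the 2 lines cannot be told apart.

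p53 is a transcription factor that MDM2, a ubiquitin ligase, keeps at a low level by marking it for breakdown. After DNA damage or other stress it accumulates, binds response elements near its targets and raises their transcription, MDM2 included, which closes a feedback loop. The best known targets stop the cell cycle (CDKN1A, which encodes the CDK inhibitor p21), promote apoptosis (BAX, BBC3, PMAIP1, FAS and TNFRSF10B), repair DNA (DDB2, XPC, POLH and RRM2B) or adjust metabolism (the sestrins, TIGAR and FDXR). Several of them, such as GADD45A, SESN2 and PMAIP1, are also raised by factors other than p53. In cultured pluripotent cells p53 activity limits growth.

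DNA letters are shown because each target is thought to be bound at a p53 response element, a pair of 10-base copies with a C and a G at fixed places. The 33 genes were not chosen by these letters. RefSeq promoter windows on GRCh38.p14, from 250 bases before to 50 after each transcription start, were available for 27 of the 33 genes. They were searched for the element, which is its own reverse complement so that both strands are covered, as a pair of copies at most 1 base apart that matched at least 17 of the 20 bases, a limit set after the expression values were known. Each copy was scored against RRRCWWGYYY (R for A or G, W for A or T, Y for C or T), and its C and G were required. A match was found for 9 of the 27 genes (33.3%) and for 795 of 27305 genes with a window (2.91%). Each match below is written 5′ to 3′ on the gene's strand, and the capitals mark the C and the G of each copy.
MDM2: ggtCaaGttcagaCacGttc
FAS: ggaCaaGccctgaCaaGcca
GDF15: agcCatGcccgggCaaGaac
PMAIP1: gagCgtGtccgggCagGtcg
AEN: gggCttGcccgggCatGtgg
RPS27L: ggcCtaGagcagaCaaGccc
SESN1: ggaCaaGtctccaCaaGtca
FDXR: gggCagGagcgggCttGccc
DDB2: gaaCaaGccctgggCatGttt
The DDB2 match held all 20 bases with a spacer of 1 base and lay at chr11:47214979-47214999. The MDM2 and FAS matches, at chr12:68808923-68808942 and chr10:88991309-88991328, held 18 of 20 each, and lay 94 and 122 bases before a start. The GDF15 match lay at chr19:18386186-18386205, beginning at base 29 counted from a RefSeq transcription start. The SESN1 match lay at chr6:109009018-109009037 on the minus strand. Also on the minus strand were those of RPS27L at chr15:63157527-63157546 and FDXR at chr17:74872996-74873015, while AEN at chr15:88621306-88621325 and PMAIP1 at chr18:59899811-59899830 were on the plus strand. Of the 9 genes with a match 8 were called lower in the comparison below, and of the 18 without one 8 were, which is a description only. Over all genes tested 6.79% were called lower. That share among the 795 genes with a match is not given here, so no link between match and fall can be read from these counts. A window with no match, as for CDKN1A, EDA2R and BAX, says only that these letters were not within it.

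Reads summed over genes, as recovered from the normalized counts, ran from 22443904 to 53224112 per library. The check of the edit was STK25, whose normalized counts were 8874, 6774 and 8710.4 in wild-type replicates 1, 2 and 3 and 3906, 3434 and 3819.7 in the knockout, a log2 fold change of -1.12 (SE 0.19, limma adjusted p = 0.00903); without wild-type replicate 1 the adjusted p was 0.0609. An exact two-sided permutation test gave p = 0.1, the smallest this design allows. Wild-type replicate 2 and knockout replicate 1 stood apart from the other libraries on the second principal component (24.1% of the variance). Cardiomyocyte markers summed to between 962084 and 1009082 normalized counts in the wild type and between 1136321 and 1266319 in the knockout, with 2 of 12 lower, NKX2-5 and PLN, and 0 higher. Over all genes tested 6.79% were called lower and 5.97% higher. Among markers of other cell types the calls and the ranges of the sums in wild type and knockout were: smooth muscle 0 lower and 4 higher of 8 tested (sums 41041 to 47101 against 118718 to 152028), fibroblast 1 and 4 of 11 (16373 to 31396 against 11220 to 21566), endothelial 0 and 1 of 5 (187 to 497 against 1198 to 1307), epicardial 0 and 1 of 7 (2632 to 4975 against 2099 to 5159), pluripotent 0 and 2 of 9 (1481 to 1959 against 3490 to 4988), endoderm and liver 2 and 0 of 5 (1722 to 3057 against 1205 to 1263) and neural 0 and 3 of 6 (199 to 233 against 517 to 895). The fibroblast and epicardial sums overlapped between genotypes, and those of the other 5 types did not. Signs were mixed in the pluripotent list, with 4 of 9 log2 fold changes below 0 and a median of 0.12. SOX2 was in both the pluripotent and the neural list. At or under 3 reads in every library were the endothelial markers CDH5, TIE1 and ERG, the epicardial MSLN, the endoderm FOXA2 and the neural SOX1. The part of cell make-up in the results below was not tested, and in bulk RNA fewer cells of a type and less RNA per cell cannot be told apart.

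The p53 target genes were lower in the knockout. Of the 33 genes, each averaging 10 or more normalized counts over the 6 libraries and so tested, 18 fell and 0 rose at a limma adjusted p under 0.05, adjusted over 15536 genes. Over all tested genes 12.8% were called, 6.79% lower and 5.97% higher. Because the 33 were chosen with earlier results of these data known, this contrast is a description only. The largest falls were of EDA2R, a receptor of the tumour necrosis factor family, GDF15, a secreted stress cytokine, CDKN1A and SPATA18. The summed normalized count of the 33 genes lay between 94185 and 99952 in the wild type and between 39016 and 40256 in the knockout, and without CDKN1A between 72311 and 78231 and between 38031 and 38954. The median log2 fold change was -1.09, beside 0.0052 over all genes tested, and 31 of the 33 values were below 0. In 20 genes the 3 knockout libraries lay below all 3 wild-type libraries, against 17.2% of all genes tested, and in 1 gene, GADD45A, they lay above, against 16.2%. Without the 2 libraries that stood apart, 23 of the 33 were lower and 1 was higher, while 14.0% of all genes were called lower and 14.9% higher. With wild-type replicates 1 and 3 and knockout replicate 3 left out in turn the falls numbered 9, 10 and 11. Calls over all genes, in either direction, numbered 796, 916 and 962 in these fits, against 1982 with all 6 libraries. Of those calls 50.1%, 49.5% and 38.4% were higher, against 46.8% with all 6 libraries. In all 6 fits that left out 1 library 8 genes were called: BTG2, CDKN1A, DDB2, EDA2R, FDXR, GDF15, PHLDA3 and SPATA18. The share of all tested genes called in all 6 fits is not given here, so this count is a description only. From the recovered reads edgeR called 17 of the 33 lower and 0 higher (6.42% and 5.57% of all genes), and DESeq2 19 and 0 (10.7% lower among all genes).

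**Figure D1:**
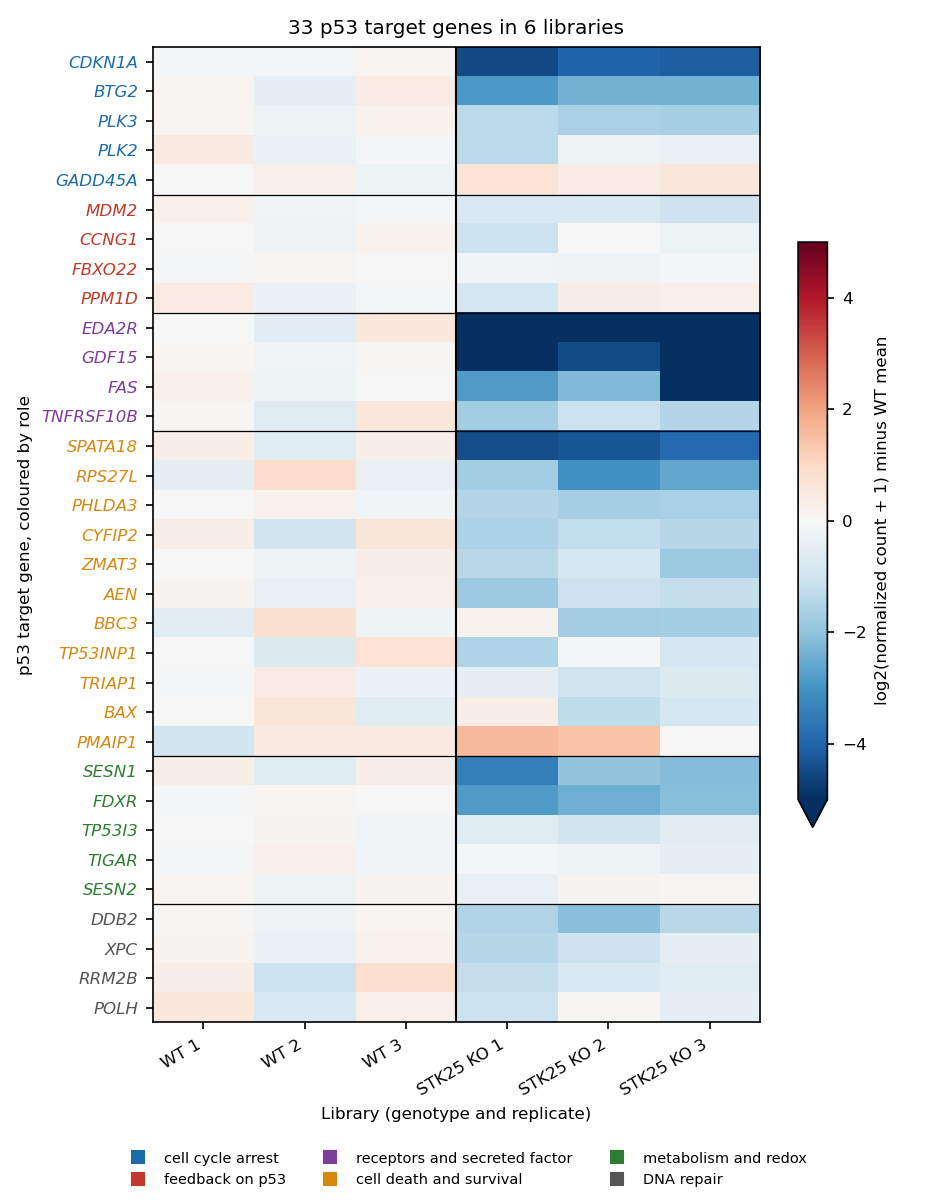
Heat map of the 33 p53 target genes (rows, grouped and coloured by role) in the 6 libraries (columns); colour is log2(normalized count + 1) minus the wild-type mean of that gene, and values below -5 are drawn in the darkest blue. The knockout columns are blue in most rows, dark for EDA2R, GDF15, CDKN1A and SPATA18, and for FAS darkest in knockout replicate 3. GADD45A is red in all 3 knockout columns, and PMAIP1 is redder than GADD45A in knockout replicates 1 and 2.

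Genes that act on p53 were compared beside its targets. MDM4, a relative of MDM2 that blocks p53 activity, had 619, 700.0 and 845 normalized counts in the wild type and 623, 656 and 398 in the knockout, with overlapping groups and a log2 fold change of -0.39 (95% interval -1.02 to 0.24, limma adjusted p = 0.406). Of 21 tested relatives and upstream regulators of p53, 1 fell (4.76%) and 0 rose, beside 6.79% lower and 5.97% higher among all genes. Their median log2 fold change was -0.098. The 1 that fell was HIPK2, a kinase that phosphorylates p53, with 1777 ± 269 normalized counts in the wild type and 557 ± 269 in the knockout (SD, n = 3 each; limma adjusted p = 0.0177, and up to 0.0799 without wild-type replicate 1, 2 or 3). The kinases ATM (log2 fold change 0.059, limma adjusted p = 0.913) and ATR (-0.082, limma adjusted p = 0.890), which signal DNA damage to p53 and were picked by role, did not pass. TP63, TP73 and CDKN2A were under the mean of 10 and were not tested.

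Positions below are those of GENCODE 29 on GRCh38. Among the targets that arrest the cell cycle, 3 of 5 fell. CDKN1A had 21874, 21721 and 24553 normalized counts in wild-type replicates 1, 2 and 3 and 985, 1403 and 1302 in the knockout. The wild-type values lay within a narrow range and the groups were far apart. The fall was 18.5-fold in the means, a log2 fold change of -4.22 (SE 0.20, limma adjusted p = 6.44e-05). Per kb of its longest annotated transcript CDKN1A had the highest level of the 33 genes in the wild type, 10020.4 normalized counts per kb, and the 7th highest in the knockout, 543. Ranks per kb depend on that length, and the longest transcript need not be the main one expressed. RPS27L, with a wild-type mean of 12944 normalized counts, was divided by 6434 bases. BTG2, an antiproliferative factor that recruits an mRNA deadenylase, had 2673, 1795 and 3179 in the wild type and 336, 484 and 481 in the knockout. Its groups did not overlap, and knockout replicate 1 was the lowest (log2 fold change -2.53, SE 0.28, limma adjusted p = 0.00156). PLK3, a stress-responsive polo-like kinase, had 400.3, 316 and 421 in the wild type against 149, 120.4 and 117 in the knockout. These values did not overlap either and PLK3 fell by 1.55 (SE 0.27, limma adjusted p = 0.0106). The call was lost when wild-type replicate 1 (0.0665) or 3 (0.0580) was left out. PLK2, its relative, had 1384, 802 and 966 in the wild type and 399, 869 and 812 in the knockout, with overlap and a log2 fold change of -0.64 (95% interval -1.47 to 0.19). GADD45A, a stress protein that binds the replication clamp PCNA, had 4109.9, 4769 and 3344 in the wild type and 6499, 5203 and 6035 in the knockout. The 3 knockout values were above all 3 wild-type values, but the log2 fold change of 0.55 (SE 0.20) had a limma adjusted p of 0.128, and 0.0178 without wild-type replicate 2 and knockout replicate 1. In the knockout GADD45A had the highest level of the 33 per kb of longest transcript, 3952, with the same limit.

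Of the 4 targets that feed back on p53 only MDM2 fell. MDM2 had 2010.4, 1546 and 1639 normalized counts in wild-type replicates 1, 2 and 3 and 1004, 1025 and 833 in the knockout. The groups did not overlap, and the knockout mean was 55.1% of the wild-type mean (log2 fold change -0.86, SE 0.20, limma adjusted p = 0.0319). Leaving out wild-type replicate 1 or 3, or knockout replicate 2 or 3, ended that call (adjusted p = 0.154, 0.0978, 0.0719 and 0.126). The other 3 did not pass. CCNG1, cyclin G1, had 6874, 5944 and 7653 in the wild type and 3225, 6837 and 5704 in the knockout, with knockout replicate 2 inside the wild-type range and knockout replicate 1 lowest (log2 fold change -0.44, 95% interval -1.12 to 0.24). PPM1D, a phosphatase that acts on p53 and on the kinases that activate it, had 995, 615 and 711 in the wild type against 411, 933 and 892 in the knockout, again with knockout replicate 1 lowest. Its log2 fold change was -0.12 (95% interval -0.96 to 0.73), and it was 0.27 without knockout replicate 1 and 0.081 without wild-type replicate 1. FBXO22, the substrate receptor of a ubiquitin ligase, had 2905, 3309 and 3169 in the wild type and 2845, 2732 and 3025 in the knockout. These groups overlapped, with a log2 fold change of -0.12 (95% interval -0.52 to 0.27).

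All 4 receptors and secreted factors fell. EDA2R binds a splice form of ectodysplasin A and signals to NF-kB, and its gene spans 66595637 to 66639298 of chromosome X, minus strand. It had 746, 517 and 1079 normalized counts in wild-type replicates 1, 2 and 3 and 1.27, 1.11 and 0 in the knockout, from 1, 1 and 0 reads. With the knockout set to 3 reads per library, EDA2R was at least 238-fold lower. The fit gave a log2 fold change of -8.79 (SE 0.54, limma adjusted p = 0.000177), which depends on the added count and is no bound. GDF15 had 1009, 840.1 and 964 in the wild type and 1.27, 41.2 and 25.8 in the knockout. The wild-type libraries were alike, whereas knockout replicate 1 held 1 read and the other two 37 and 29. GDF15 fell by 6.09 on the log2 scale (SE 0.99, limma adjusted p = 0.00751). The log2 fold change was -4.80 without knockout replicate 1. FAS, the death receptor for FAS ligand, had 154, 115 and 131 in the wild type against 17.8, 27.9 and 0.889 in the knockout. Here knockout replicate 3 held 1 read (log2 fold change -3.73, SE 0.97, limma adjusted p = 0.0440; -2.52 without that library). FAS was over the threshold without wild-type replicates 1, 2 or 3 (adjusted p = 0.150, 0.0919 and 0.127), and with edgeR (0.0588). FAS shares 380 exon bases with ACTA2 on the opposite strand. TNFRSF10B, a receptor for the ligand TRAIL, had 3044, 1848 and 4286 in the wild type and 855, 1376 and 1038 in the knockout. Its groups did not overlap (log2 fold change -1.43, SE 0.33, limma adjusted p = 0.0301), but leaving out wild-type replicate 1 or 3, or knockout replicate 1 or 3, gave 0.118, 0.0983, 0.0580 and 0.104.

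**Figure D2:**
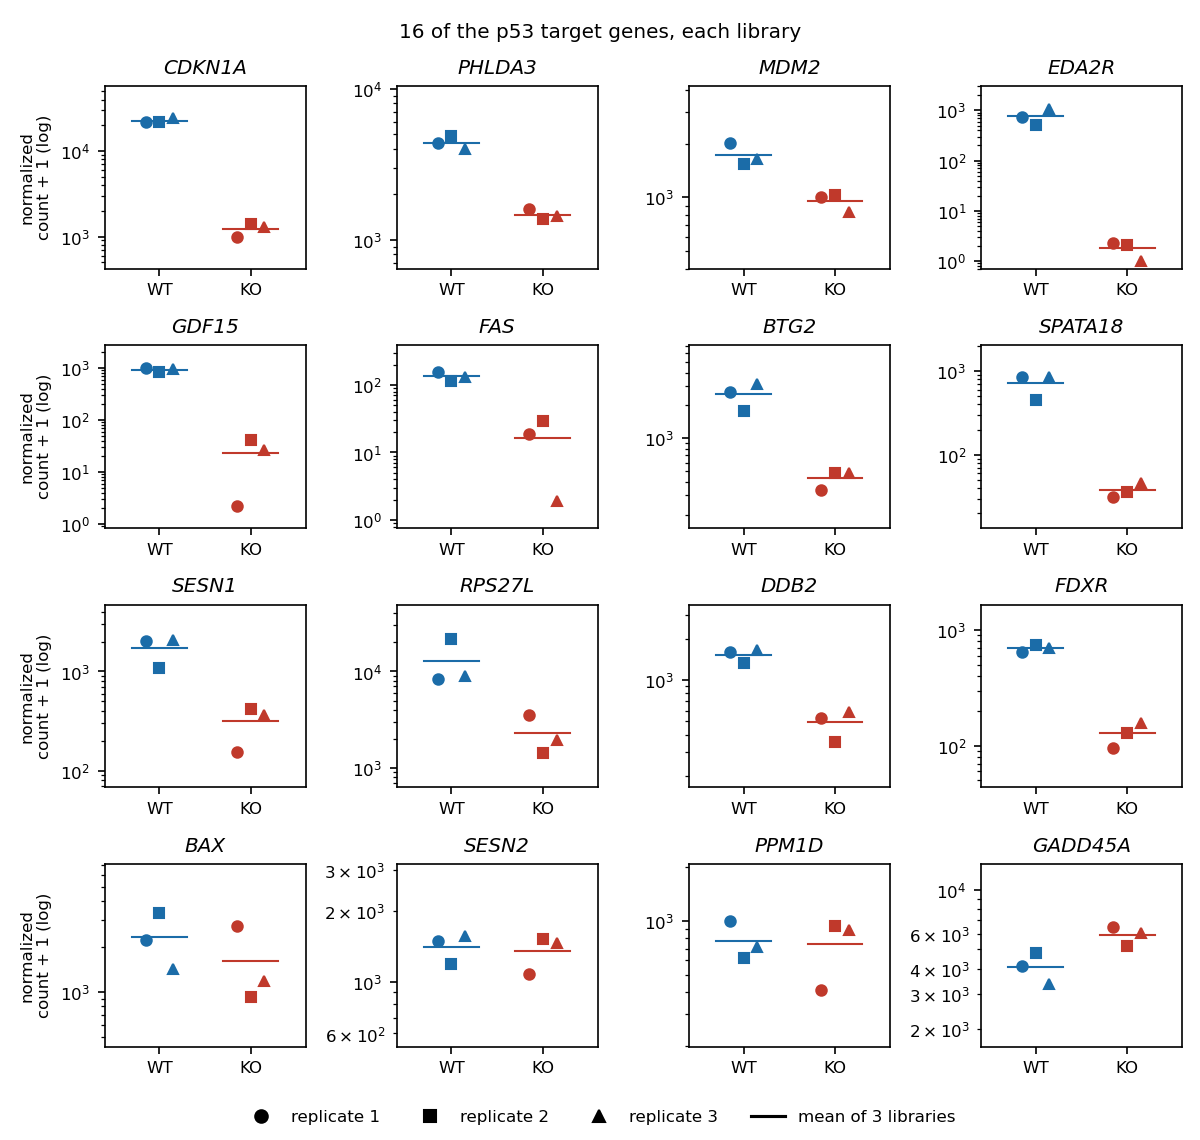
Normalized count plus 1 on a log axis in each of the 6 libraries for 16 of the p53 target genes; symbols are replicates 1 to 3, horizontal lines are means of 3 libraries, and each panel has its own scale. CDKN1A, EDA2R, GDF15 and SPATA18 separate by genotype with a wide gap, while BAX, SESN2 and PPM1D overlap.

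Of 11 targets tied to cell death and survival 6 fell. SPATA18, which acts in mitochondrial quality control, had 858, 452 and 844 normalized counts in wild-type replicates 1, 2 and 3 and 30.5, 34.6 and 45.3 in the knockout. It was 19.5-fold lower in the means, with a log2 fold change of -4.21 beside -4.22 for CDKN1A (SE 0.36, limma adjusted p = 0.000562). RPS27L, a ribosomal protein close to RPS27, had 8351, 21507 and 8974 in the wild type against 3543, 1434 and 1932 in the knockout. Wild-type replicate 2 and knockout replicate 1 were the highest of their genotypes, yet the groups did not overlap (log2 fold change -2.45, SE 0.45, limma adjusted p = 0.0121; 0.0559 without knockout replicate 3). Sequence shared with RPS27 means that reads may have been split between the pair. PHLDA3, which restrains the kinase AKT, had 4341, 4889.9 and 3965 in the wild type against 1590.2, 1369.8 and 1426 in the knockout. The 3 libraries of each genotype were close to each other (log2 fold change -1.59, SE 0.18, limma adjusted p = 0.00176). AEN, a nuclease of apoptotic cells, had 2722, 1876 and 2892 in the wild type and 698, 1208 and 1074 in the knockout. Its log2 fold change was -1.34 (SE 0.28, limma adjusted p = 0.0197). ZMAT3, an RNA-binding zinc finger protein, had 1309.6, 1108 and 1628 in the wild type against 515, 724 and 381 in the knockout, without overlap. It had a log2 fold change of -1.35 (SE 0.29, limma adjusted p = 0.0219). CYFIP2, a subunit of the WAVE actin regulator, had 5806, 2491 and 7206 in the wild type against 1551, 1997 and 1743 in the knockout, with wild-type replicate 2 well below the other two. Its log2 fold change was -1.42 (SE 0.38, limma adjusted p = 0.0480).

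The last 3 of these calls depended on single libraries. With wild-type replicates 1 and 3 and knockout replicate 3 left out in turn, the limma adjusted p of AEN became 0.0938, 0.0836 and 0.0621 and that of ZMAT3 0.0900, 0.0925 and 0.0785. CYFIP2 was called only in the fit without wild-type replicate 2, and without wild-type replicates 1 and 3 and knockout replicates 1, 2 and 3 it had 0.177, 0.146, 0.0862, 0.0847 and 0.139.

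The other 5 genes of this role, BAX, BBC3, PMAIP1, TRIAP1 and TP53INP1, did not pass. BAX, which opens pores in the outer mitochondrial membrane, had 2229, 3328 and 1422 normalized counts in wild-type replicates 1, 2 and 3 and 2746, 918 and 1187 in the knockout. Wild-type replicate 2 and knockout replicate 1 were the highest of their genotypes, and the groups overlapped (log2 fold change -0.61, 95% interval -1.67 to 0.46, limma adjusted p = 0.449). BBC3, which encodes the BH3-only protein PUMA, was also highest in wild-type replicate 2 and in knockout replicate 1, with 165, 414 and 213 in the wild type against 276, 72.4 and 73.8 in the knockout. Its log2 fold change was -1.09 (95% interval -2.48 to 0.29, limma adjusted p = 0.288), and it passed without knockout replicate 1 (-1.73, adjusted p = 0.0432). PMAIP1, which encodes the BH3-only protein NOXA, was the lowest of the 33 per kb in the wild type, with 12.1, 32.8 and 32.5 normalized counts, against 75.0, 65.8 and 24.0 in the knockout. Overlap of the groups left a log2 fold change of 1.03 (95% interval -0.45 to 2.52). TRIAP1, a mitochondrial protein that protects from apoptosis, had 3815, 5137 and 3237 in the wild type against 2929.9, 2015 and 2511 in the knockout, without overlap (log2 fold change -0.70, limma adjusted p = 0.104; 0.0209 with totals made equal). TP53INP1, a regulator of autophagy, had 826, 530.1 and 1384 in the wild type against 291, 814 and 467 in the knockout, with overlap (log2 fold change -0.82, 95% interval -1.89 to 0.25). Without wild-type replicate 2 and knockout replicate 1, BAX, BBC3 and TRIAP1 passed (adjusted p = 0.0400, 0.0247 and 0.0176).

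Of the 5 metabolic and redox targets 3 fell. SESN1, a sestrin that restrains mTORC1, had 2003, 1075 and 2063 normalized counts in wild-type replicates 1, 2 and 3 and 154, 422 and 365 in the knockout. The lowest wild-type value was more than double the highest knockout value (log2 fold change -2.51, SE 0.44, limma adjusted p = 0.0100; 0.0553 without wild-type replicate 1). SESN2, the related sestrin that is also induced by ATF4, had 1486, 1181 and 1556 in the wild type against 1072, 1520.3 and 1460.2 in the knockout. These groups overlapped (log2 fold change -0.066, 95% interval -0.59 to 0.45), and the sign turned without wild-type replicate 3 (0.011) or knockout replicate 1 (0.092). FDXR, the reductase that passes electrons to ferredoxin in mitochondria, had 639, 747 and 697 in the wild type against 95.3, 128 and 157 in the knockout. It fell to 18.3% of the wild-type mean (log2 fold change -2.47, SE 0.28, limma adjusted p = 0.00164). TP53I3, a quinone oxidoreductase, had 5336, 5880.1 and 4916 in the wild type against 3408, 2857 and 3579 in the knockout. The groups did not overlap (log2 fold change -0.72, SE 0.18, limma adjusted p = 0.0414), but the call held only when knockout replicate 1 was the library left out; leaving out wild-type replicates 1, 2 and 3 and knockout replicates 2 and 3 gave 0.156, 0.0878, 0.103, 0.133 and 0.105. TIGAR, a phosphatase that lowers glycolytic flux, had 1912, 2401 and 1867 in the wild type against 1902, 1767 and 1469.9 in the knockout. Its groups overlapped (log2 fold change -0.27, 95% interval -0.73 to 0.20).

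Among the DNA repair targets only DDB2 passed. DDB2, which recognises ultraviolet lesions for nucleotide excision repair, had 1603, 1336 and 1644 normalized counts in wild-type replicates 1, 2 and 3 and 531, 354 and 588 in the knockout. The groups were well apart (log2 fold change -1.66, SE 0.25, limma adjusted p = 0.00577). XPC, its partner in lesion recognition, had 1208, 878 and 1214 in the wild type against 405, 529 and 786 in the knockout. These groups did not overlap either, but the log2 fold change of -0.98 (95% interval -1.66 to -0.30) had a limma adjusted p of 0.0702, and 0.0227 with DESeq2 and 0.0455 with equal upper quartiles. RRM2B, a ribonucleotide reductase subunit, had 790.0, 311 and 1118 in the wild type against 281, 381 and 424 in the knockout, where only wild-type replicate 2 lay within the knockout range. Its log2 fold change was -0.86 (95% interval -1.94 to 0.21, limma adjusted p = 0.277), and it passed without wild-type replicate 2 (adjusted p = 0.0348). POLH, a translesion DNA polymerase, had 594, 239.9 and 494 in the wild type against 196, 430.2 and 297 in the knockout, with overlap (log2 fold change -0.50, 95% interval -1.49 to 0.50).

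**Figure D3:**
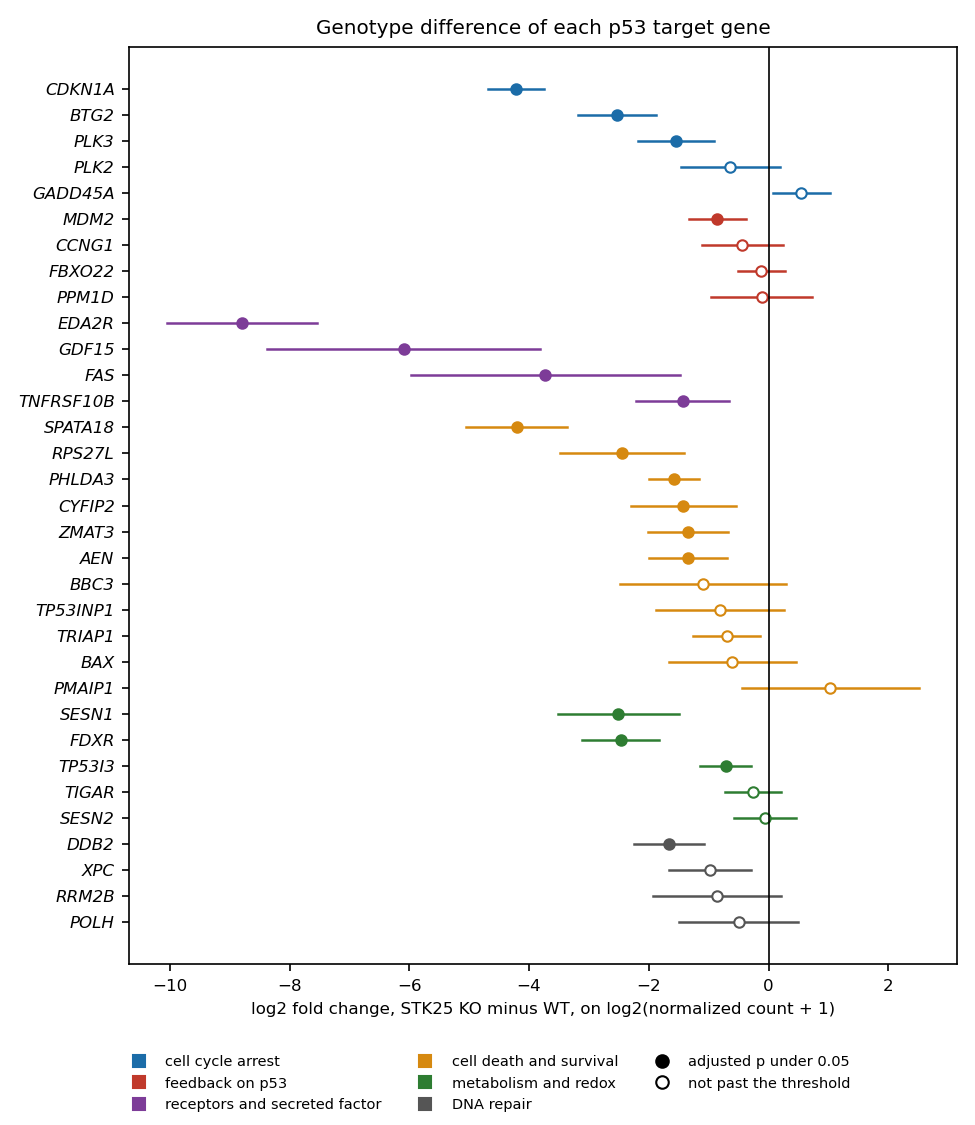
Log2 fold change of each of the 33 genes (knockout minus wild type, on log2(normalized count + 1)), with 95% intervals from the limma fit as bars and colours for the roles; filled points have an adjusted p under 0.05. The 18 filled points all lie below 0, from -8.79 for EDA2R to -0.72 for TP53I3.

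The 33 genes also differed within genotypes. In wild-type replicate 2, 22 of them were below both other wild-type libraries and 11 were above both, so that it was at one end in all 33. The median distance from the wild-type mean was -0.20 on the log2 scale there and 0.075 and 0.11 in replicates 1 and 3. The departure of wild-type replicate 2 from the other wild-type libraries and that of knockout replicate 1 from the other knockout libraries went together across the 33 genes (Pearson r = 0.53, Spearman rho = 0.61). Wild-type replicate 2 was relatively higher for short transcripts (Pearson r = -0.38 and Spearman rho = -0.52 against the log2 length of the longest transcript), while knockout replicate 1 had r = -0.020 and rho = -0.24. These are descriptions across 33 genes that share libraries, and genes are not independent replicates. BAX, BBC3 and RPS27L were high in both of these libraries, and RRM2B, POLH, TP53INP1 and SESN1 were low in both.

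Genes next to the targets were read in the same way. The nearest tested protein-coding gene on each side gave 66 neighbours, of which 6 fell and 6 rose. Their median log2 fold change was 0.06, and among all genes tested 6.79% were called lower and 5.97% higher. CPNE5, beside CDKN1A, fell (log2 fold change -7.61, limma adjusted p = 0.000198), and SLC35E3, beside MDM2, fell by 0.93 (limma adjusted p = 0.0208). FAS fell between ACTA2 and LIPA, which rose by 2.98 and 1.40 (limma adjusted p = 0.000420 and 0.0226). These neighbours were named after their values were seen. Exons of 10 of the 33 genes overlapped exons of another protein-coding gene, among the called ones PLK3, MDM2, FAS, TNFRSF10B, CYFIP2 and TP53I3, by 62 to 380 bases, and strand use in the counting was not given in the sources used here. EDA2R was a case of its own on the X chromosome. Of 17 tested genes around it, 1 fell and 1 rose (5.88% each), with a median log2 fold change of -0.12. EDA, the gene of its ligand, had 60.4, 191 and 159 normalized counts in the wild type and 2.54, 0 and 0.889 in the knockout, at most 2 reads in any knockout library, and was at least 41.8-fold lower (limma adjusted p = 0.00260). ASB12 rose by 1.81 on the log2 scale (limma adjusted p = 0.0154; up to 0.0720 without wild-type replicate 1 or knockout replicate 3).

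Receptors and adaptors related to EDA2R were compared next. Of 9 tested 3 fell (33.3%) and 0 rose, with a median of -0.38, beside 6.79% lower and 5.97% higher among all genes. Besides EDA these were NGFR, a neurotrophin receptor, with 835 ± 369 against 107 ± 55.3 normalized counts (SD, n = 3 each; limma adjusted p = 0.00709) and also TNFRSF19 with 5899.9 ± 2846 against 1188 ± 605 (SD, n = 3 each; limma adjusted p = 0.0314, and up to 0.123 on leaving out knockout replicate 3 or wild-type replicate 1 or 3). EDAR, the receptor of the other ectodysplasin form, had at most 3 reads in every library. In death receptor signalling 4 of 14 tested genes fell (28.6%) and 0 rose, with a median of -0.40. TNFRSF10C, a decoy receptor for TRAIL and itself a p53 target, had 1004, 778 and 903 normalized counts in the wild type and 28.0, 39.0 and 32.9 in the knockout. That was 26.9-fold lower, a steeper fall than that of TNFRSF10B, though the difference between the 2 was not tested (log2 fold change -4.71, SE 0.29, limma adjusted p = 0.000177). TNFRSF10A, another TRAIL receptor, had 92.1 ± 2.27 against 18.6 ± 6.44 (SD, n = 3 each; limma adjusted p = 0.0140, and up to 0.0724 without wild-type replicate 1 or 3). CFLAR, an inhibitor of caspase activation at these receptors, fell by 1.94 and BID, which links them to mitochondria, by 1.02 (limma adjusted p = 0.00722 and 0.0243; BID was called in only 1 of 6 fits that left out 1 library, that without knockout replicate 1, and reached 0.0976).

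A list of 69 further genes described as activated by p53 was read beside the 33. Of 62 tested, 15 fell (24.2%) and 3 rose (4.84%), beside 6.79% lower and 5.97% higher among all genes. The median log2 fold change of the list was -0.43. Besides TNFRSF10C and TNFRSF10A, the called members with the largest change were SYTL1, which fell by 2.63 (SE 0.52, limma adjusted p = 0.0161) and HHAT (-2.33, SE 0.59, limma adjusted p = 0.0394). SYTL1 lost its call when wild-type replicate 1 or 2 or knockout replicate 3 was left out (adjusted p up to 0.0693), and HHAT in all fits that left out 1 library except that without knockout replicate 2 (up to 0.133). The 3 that rose, named after their values were seen, were TMEM63B, INPP1 and GM2A (log2 fold change 1.77, 1.04 and 0.75). Genes that p53 represses through p21 and the DREAM complex, mostly of the cell cycle, were lower: 8 of 23 fell (34.8%) and 0 rose, with a median of -0.74. TYMS fell by 1.35, MKI67 by 1.06, CCNB2 by 1.04 and CENPA by 1.03 (limma adjusted p = 0.00290, 0.0243, 0.00690 and 0.0253). TYMS was called in all 6 fits that left out 1 library, CCNB2 in all but that without wild-type replicate 1 (adjusted p = 0.0520), MKI67 in 3 (up to 0.102 without wild-type replicate 1 or knockout replicates 2 or 3) and CENPA only without knockout replicate 1 (up to 0.101).

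Targets of the stress factor ATF4 were included because it shares targets with p53, among them GDF15, SESN2 and PMAIP1. Of 19 tested 8 rose (42.1%) and 2 fell (10.5%), with a median of 0.87, beside 5.97% higher and 6.79% lower among all genes. The 2 that fell, SESN3 and ATF3 (log2 fold change -1.13 and -1.08), are named after their values were seen. TRIB3, CHAC1, VLDLR and ASNS rose by 2.63, 2.52, 1.87 and 1.71 on the log2 scale (limma adjusted p = 0.000971, 0.0155, 0.00314 and 0.00265), with CHAC1 at up to 0.0659 without wild-type replicate 3 or knockout replicate 3. Of these named shared genes GDF15 fell, and SESN2 and PMAIP1 did not pass. In the BCL2 family and apoptosome 4 of 17 rose (23.5%) and 0 fell, with a median of 0.12. HRK, a BH3-only gene, had 86.1, 112 and 42.7 normalized counts in the wild type and 756, 523 and 541 in the knockout (limma adjusted p = 0.00341). BOK, a relative of BAX, rose by 1.19 (limma adjusted p = 0.00871; 0.0674 with totals made equal), and CYCS and DIABLO, mitochondrial proteins released in apoptosis, by 1.22 and 0.75 (limma adjusted p = 0.0219 and 0.0413). CYCS lost its call, at up to 0.120, on leaving out knockout replicate 3 or wild-type replicate 1 or 3, and DIABLO was over the threshold in all 6 fits that left out 1 library.

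**Figure D4:**
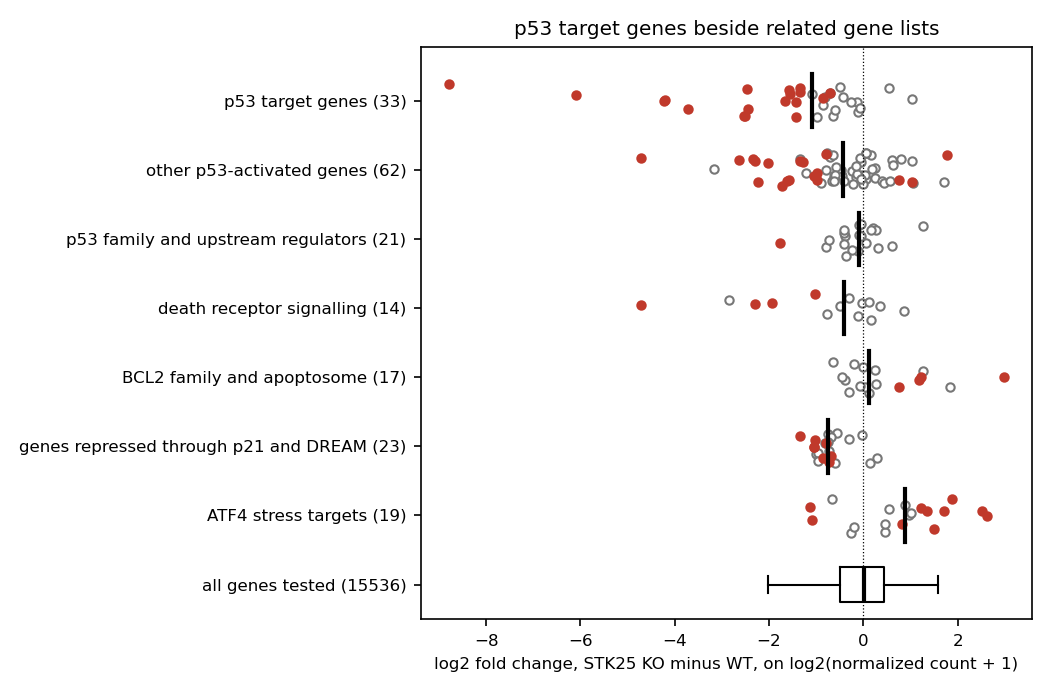
Log2 fold change (knockout minus wild type) of the tested members of 7 gene lists, with the number tested in brackets; filled red points have a limma adjusted p under 0.05, black bars are medians, and the box of all genes spans the quartiles with whiskers to the 5th and 95th percentiles. The p53 target genes have a median of -1.09, the ATF4 targets one of 0.87, and all genes one of 0.0052.

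Paralogs of the 33 genes showed no common direction. Of 24 tested 2 fell (8.33%) and 3 rose (12.5%), with a median of 0.13, beside 6.79% lower and 5.97% higher among all genes. ZMAT4, a relative of ZMAT3, had 92.1, 84.5 and 182 normalized counts in the wild type and rose to 1072, 1711 and 1869.9 in the knockout (limma adjusted p = 0.00106), and GADD45B and GADD45G rose by 1.58 and 1.29 on the log2 scale (limma adjusted p = 0.00395 and 0.0369). CCNG2 fell by 1.42 (limma adjusted p = 0.0470). GADD45B and ZMAT4 were called in all 6 fits that left out 1 library, GADD45G only without knockout replicate 1 or 2 (up to 0.138) and CCNG2 in none (up to 0.190). Orders per kb depend on the longest annotated transcript, which need not be the main one expressed. On that length, the wild-type order of the 33 genes after CDKN1A was TRIAP1, CCNG1, GADD45A and TP53I3. Their means ran from 2691 to 3438 normalized counts per kb, and these neighbours overlapped across libraries. In the knockout the order was GADD45A, CCNG1, TRIAP1, TP53I3 and BAX, from 1191 to 3952 normalized counts per kb, where GADD45A lay above the others in each library. The others changed order between libraries. In knockout replicate 1 CCNG1 had 1312 per kb, below TP53I3, BAX and TRIAP1 with 1706, 2022 and 2479.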

How the data were processed

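RNA from 6 libraries, 3 per genotype, was turned into cDNA (Clontech Ultra Low v4) and then into NexteraXT libraries, per the labels' protocols. The authors deposited 1 table of normalized counts (a signal in which a library's values are whole multiples of 1 step). Per the submitters' processing notes, bcl2fastq 2.19, kallisto 0.44.0, DESeq2 1.28.1 and GRCh38 were named, with no role or order; strand use was not given in the sources used here. Whole reads were recovered for 100% of values (tolerance 0.001), from 22443904 to 53224112 per library. These totals are sums over genes. Whether the whole reads were counted or rounded from estimates was not given in the sources used here.

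Of 35793 genes, 11622 had no reads and 15536 had a mean of at least 10 and were tested, with limma 3.58.1 (R 4.3.3; trend) on log2(value + 1), a scale that understates changes of low genes. P-values were Benjamini-Hochberg adjusted over all tested genes, with a threshold of 0.05. Alternatives were other pseudocounts (0.1 and 10), filters and scalings, other limma settings, a replicate block, edgeR 4.0.16 and DESeq2 1.42.0 on recovered reads, and leaving out each library; leaving out 2 libraries together and correcting each library for length and GC content were added after seeing the data. The test was checked on simulated counts for 15536 genes, where it recovered 34 of 100 genes changed 2-fold and 99 of 100 changed 4-fold, with 0 false calls. The simulation had an assumed spread between replicates and no library that stood apart, unlike the real data. It therefore gives no rate of false calls for the real comparison.

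The members and lists were chosen with earlier results of these data known. Values in every library were given for members past the threshold and for EDA2R, CDKN1A, MDM2, GDF15 and BAX; the other members' values were added afterwards. Other genes named were STK25, MDM4, EDA and EDAR, up to 4 called members with the largest change in each other list, and called X neighbours; exceptions are marked. Some genes of these lists were left out of them and are not reported here. Positions came from GENCODE 29.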

Additional observations from a re-analysis of the deposited data

How the results depend on the processing

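Of 360 alternative values for the 18 called p53 target genes, 308 kept their direction and side of the threshold. Genes called over all genes tested numbered 1982, and 798 with a replicate block, 3210 with DESeq2, 4483 without wild-type replicate 2 and knockout replicate 1 together (an alternative added after seeing the data), and 796 to 2181 with 1 library left out. With the replicate block, 10 of the 33 p53 target genes were called, all 10 lower (2.90% of all genes were lower and 2.24% higher), and STK25 had -1.12 (adjusted p = 0.0684). Deviations of same-numbered libraries from their genotype means had correlations of -0.235, -0.400 and 0.169. Those of wild-type replicate 2 and knockout replicate 1 had 0.448. These 2 libraries weigh on all such values, so whether the numbers pair the samples cannot be settled. With the trend over transcript length and GC content removed, also added after seeing the data, 2661 genes were called, 20 of the p53 target genes were lower and their median was -0.99. With 1 library left out, 9 to 17 of the p53 target genes were called and 9 to 17 were lower, their median ran from -1.40 to -1.11 and STK25 from -1.24 to -1.05. Without both libraries that stood apart, 1 was higher and the median was -1.30. With totals made equal the median was -1.37, while the median of all genes moved to -0.27 and 27.4% of calls were higher, against 46.8% before. PPM1D turned to 0.12 without both libraries, and ran from -0.32 to 0.27 with 1 library left out (0.08 without wild-type replicate 1, 0.27 without knockout replicate 1). SESN2 ran from -0.19 to 0.092, with 0.011 without wild-type replicate 3 and the highest value without knockout replicate 1. The cause of these shifts was not tested. With 0 or 1 reads for EDA2R and 0 to 2 for EDA in each knockout library, their folds are known only as bounds.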
